A study of Mus musculus with 4 samples.

Results

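The genes described are the transcriptional arm of the Hippo pathway: the co-activators Yap1 and Wwtr1 (the gene for TAZ), the DNA-binding partners Tead1 to Tead4, and the target genes Ctgf, Cyr61, Ankrd1 and Amotl2. They were chosen by symbol, and all 10 are among the 23281 genes of the deposited table. They were measured in 3 libraries of mouse horizontal basal cells (HBCs), the reserve stem cells of the olfactory epithelium, cultured from wild-type mice to passage 3 under control conditions with no sort given. They were also measured in 1 library of respiratory basal cells (RBCs), the corresponding cells of the neighbouring airway lining, which were microdissected from the animal and sorted for TdTomato. The RBC strain, KRT5-CreER;Ai9-fl(stop)TdTomato, carries a Cre recombinase driven by the keratin 5 promoter and a reporter that Cre switches on. Whether the cultures were started from separate mice, and whether the RBC library pooled several, is not given in the labels. The p-values below thus cover the spread among these HBC samples and no more, and that spread may be technical.

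Hippo signalling is a kinase relay that responds to cell contact, shape and attachment. The kinases STK3 and STK4 activate LATS1 and LATS2, which phosphorylate YAP and TAZ and keep them in the cytoplasm. When the relay is quiet, YAP and TAZ enter the nucleus, bind TEAD proteins and switch on genes such as Ctgf and Cyr61. In stratified and airway epithelia this output is known for its part in basal cell growth and in repair after injury. RNA levels do not measure phosphorylation or the location of the proteins.

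TEAD proteins bind a short motif, GGAATG, which is read on the opposite strand as CATTCC. The upstream sequences of 3 target genes are shown because these genes share the motif while their levels differed in different directions between HBCs and RBCs. Each is the 250 bases before the start site, 5' to 3' on the gene's strand, from RefSeq's promoter table (build GRCm38.p6), and capitals mark the motif.
Cyr61 (listed as Ccn1, chr3:145649986-145650235, minus strand): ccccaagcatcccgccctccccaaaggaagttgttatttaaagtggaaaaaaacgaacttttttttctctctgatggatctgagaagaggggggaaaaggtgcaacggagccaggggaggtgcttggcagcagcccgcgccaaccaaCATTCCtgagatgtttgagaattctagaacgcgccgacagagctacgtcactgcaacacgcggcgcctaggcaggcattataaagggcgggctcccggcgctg
Ankrd1 (chr19:36119845-36120094, minus strand): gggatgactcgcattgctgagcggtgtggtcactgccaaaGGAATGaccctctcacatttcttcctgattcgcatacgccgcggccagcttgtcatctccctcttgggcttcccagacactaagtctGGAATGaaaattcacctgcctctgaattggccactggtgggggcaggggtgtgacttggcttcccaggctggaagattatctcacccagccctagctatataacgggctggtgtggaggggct
Amotl2 (chr9:102717554-102717803, plus strand): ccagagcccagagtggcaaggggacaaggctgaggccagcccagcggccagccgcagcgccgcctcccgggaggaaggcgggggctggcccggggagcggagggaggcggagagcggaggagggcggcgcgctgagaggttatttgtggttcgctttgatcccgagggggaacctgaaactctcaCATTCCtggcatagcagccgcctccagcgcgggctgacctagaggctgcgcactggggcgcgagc
The match began 103 bases before the start site in Cyr61, 65 before it in Amotl2, and 210 and 123 before it in Ankrd1. Of the 10 members, 7 had at least 1 start site in the table, and Ctgf, Tead1 and Tead4 had none. A match was present in 6 of these 7 genes, namely Yap1, Wwtr1, Tead3, Cyr61, Ankrd1 and Amotl2, and in 8 of their 10 windows, some of which overlap. Of all 32851 windows of the same length, 12.6% held it. The AP-1 motif TGANTCA, the same on both strands, was in none of the 10 member windows and in 6.75% of all windows. The cyclic AMP response half-site TGACG, searched on both strands, was in 1 member window, that of Cyr61, where it began 58 bases before the start site, and in 17.8% of all windows. These matches describe letters and are no evidence of binding.

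Levels are given as depth-scaled FPKM, in which each library's deposited FPKM was divided by its own depth factor, and folds are ratios of these levels. A gene was called when limma's adjusted p was under 0.05 and the change was at least 2-fold. In the whole table, 5619 genes had a call with RBCs higher and 2105 with HBCs higher. RBC-high genes made up 72.7% of the calls, 54.9% with library medians set equal and 46.3% under quantile normalization. Over all tested genes the median RBC minus HBC difference was 0.45 on the log2 scale. It was -0.05 with equal medians, -0.10 under quantile normalization, 0.55 with equal sums and 0.56 with values as deposited.

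The RBC library carried the basal markers Krt5 (26422) and Trp63 (4296), which were at 18579 ± 368 and 545 ± 12.8 (SD, n = 3) in HBCs. Of 10 basal markers, 7 were called with RBCs higher, 1 with HBCs higher and 2 had no call (Krt5 and Itga6), beside 34.2% and 12.8% of all tested genes called in these directions. The gene called with HBCs higher was Krt17 (17961 ± 791 and 8369), and Itga6 was at 1280 ± 21.3 and 842. The Krt17 call was lost under quantile normalization (log2 difference -0.86) and with values as deposited (-0.99), and Itga6 was called with HBCs higher when medians were equal (-1.10). The RBC library also carried more RNA of other cell types. Of 39 tested markers of fibroblasts, endothelium, smooth muscle and leukocytes, 32 were called in favour of RBCs and 2 in favour of HBCs. The summed level of 10 fibroblast markers ran from 149 to 165 over HBC libraries and reached 7921 in RBCs, where Dcn alone was at 6885. For 10 smooth muscle and pericyte markers the sums were 437 to 474 and 1921, and for 10 leukocyte markers they were 521 to 599 and 16019, of which Lyz2 took 14733. For 10 endothelial markers they were 88.9 to 142 and 144. Single genes took most of some HBC sums: Egfl7 was at 85.4 to 138, Cd68 at 477 to 560 and Rgs5 at 391 to 431. Sums over 5 epithelial markers ran the other way, at 81607 to 85547 in HBCs and 21446 in RBCs. Krt18 (37939 to 39575 in HBCs and 10046 in RBCs) and Krt8 (27960 to 29498 and 4912) took most of these sums. Of the 5, 4 were called with HBCs higher, and Cdh1 (4457 ± 103 and 2417) had no call. Ciliated cell markers summed to 183 to 217 and 5951, olfactory neuron markers to 202 to 240 and 5655, and glial markers to 241 to 254 and 777. No fibroblast, endothelial, smooth muscle or leukocyte marker was listed at 0 in the RBC library. In HBCs, Mfap5, Emcn, Cldn5, Cnn1, Tyrobp and Csf1r of these 4 lists were listed at 0 in all 3 libraries. Skeletal muscle markers summed to 27.5 to 39.1 and 132, of which Pax7 took 90.8. In the RBC library Ckm, Myh1, Tnnt3 and Myod1 of that list were listed at 0, as was the glial marker Foxd3. The part of these cells in the differences below was not tested. In such bulk libraries, fewer cells of a type and less RNA per cell cannot be told apart.

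**Figure D1:**
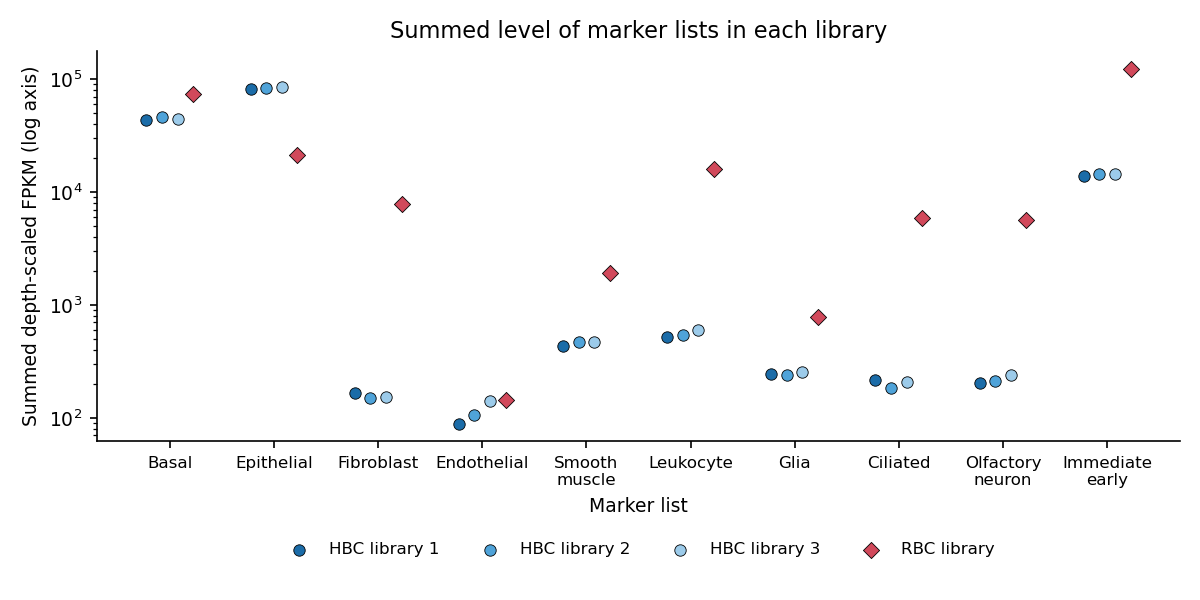
Summed depth-scaled FPKM (log axis) of the marker lists other than skeletal muscle in the 4 libraries, with circles for HBC libraries and a diamond for the RBC library. The fibroblast sum is 149 to 165 in HBCs and 7921 in RBCs, and the endothelial sum differs least between the groups.

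Members of the pathway moved in different directions. Cyr61 and Tead3 were called higher in the RBC library, Ankrd1 and Wwtr1 were called higher in HBCs, and the other 6 members changed by less than 2-fold. The background is high in this comparison: 47.0% of all tested genes were called, 34.2% as higher in RBCs and 12.8% as higher in HBCs. The share of members called, 4 of 10, was thus near that of all genes. In the main setting all 10 members had an adjusted p under 0.05 in limma, as did 75.2% of all tested genes. Under at least 1 alternative this was lost for Yap1, Tead1, Tead2, Tead3, Tead4, Ctgf and Amotl2. It held throughout for Wwtr1, Cyr61 and Ankrd1. The RBC value lay outside the range of the HBC libraries for all 10, and for 94.1% of all tested genes. It was above every HBC library for 5 members (58.6% of all tested genes) and below every HBC library for the other 5 (35.5% of all tested genes). The median log2 difference of the members was 0.09, against 0.45 for all tested genes.

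**Figure D2:**
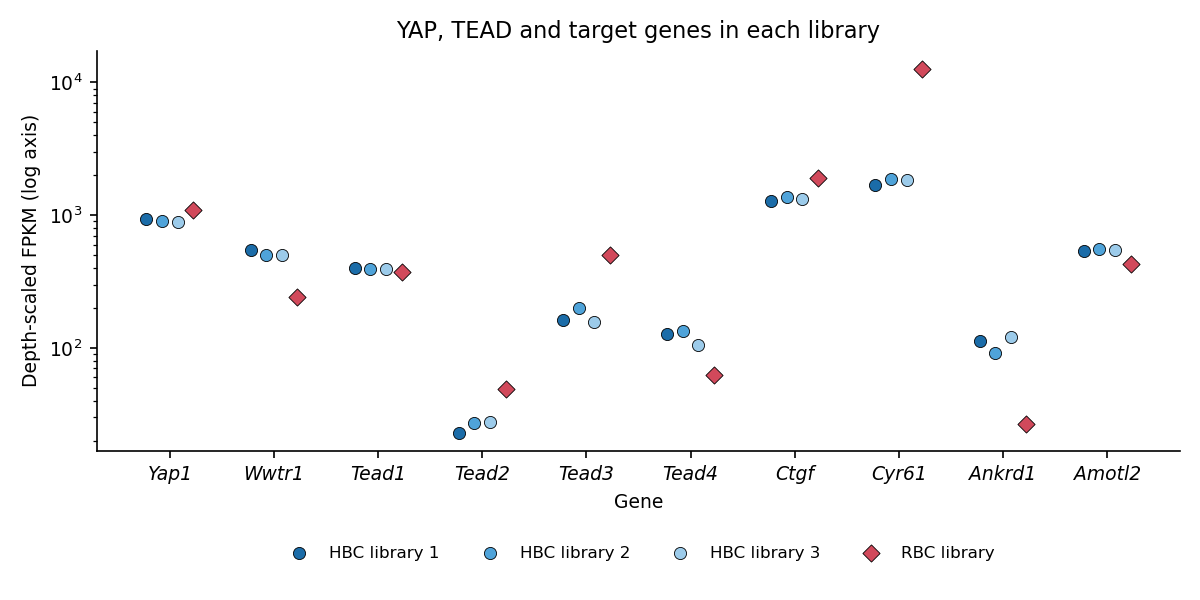
Depth-scaled FPKM (log axis) of the 10 genes in each library, with circles for the 3 HBC libraries and a diamond for the RBC library. The HBC circles of each gene nearly coincide, and the widest gaps to the RBC diamond are those of Cyr61 (12656 in RBCs) and Ankrd1 (26.6 in RBCs).

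The order of levels was similar at the top and differed below it. Cyr61, Ctgf and Yap1 were the 3 highest members, in this order, in each of the 4 libraries. In HBC libraries Amotl2 and Wwtr1 followed, and they changed places between libraries, so their levels did not differ beyond their spread (549 ± 10.3 and 514 ± 24.2, SD, n = 3). Tead1 and Tead3 came next, and Tead4 and Ankrd1 again changed places between HBC libraries. Tead2 was the lowest member in each HBC library. In the RBC library Tead3 came next after these 3, ahead of Amotl2, Tead1 and Wwtr1, and Ankrd1 was the lowest. Among genes above 0 in a library, Cyr61 lay at percentile 93.5 to 94.3 in HBCs and 99.5 in RBCs, and Tead2 at 28.0 to 30.4 and 36.2.

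The co-activators differed from each other in how they compared between the groups. Yap1, the main effector of the pathway, was at 938, 900 and 893 in HBC libraries 1, 2 and 3 and at 1092 in the RBC library. The RBC value was the highest, by 1.20-fold (log2 difference 0.26, SE 0.04, limma adjusted p = 0.0163), which is under the 2-fold minimum and below the median difference of all genes. With library medians set equal the difference turned to -0.24. Wwtr1, whose product TAZ shares most of its partners with YAP, was at 542, 503 and 498 in HBCs and 242 in RBCs. Every HBC library was above the RBC library, by 2.13-fold on average (log2 difference -1.08, SE 0.07, limma adjusted p = 0.00312). That fold fell just short of the minimum with equal sums (log2 difference -0.98) and with values as deposited (-0.97).

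Dividing a library by a single factor leaves the ratio of the co-activators to each other as it is, whereas quantile normalization, which moves Yap1 to a log2 difference of 0.52 and Wwtr1 to -1.25, changes it. Yap1 made up 63.4%, 64.2% and 64.2% of the summed Yap1 and Wwtr1 level in HBC libraries and 81.9% in RBCs. Yap1 over Wwtr1 was thus 1.77 ± 0.0352 (SD, n = 3) in HBCs and 4.51 in RBCs. The sum of both was close in the groups under the main scaling, at 1424 ± 48.6 (SD, n = 3) in HBCs and 1334 in RBCs. Unlike the ratio, this sum depends on the factor used. With library medians set equal, both genes were lower in RBCs (log2 differences -0.24 for Yap1 and -1.58 for Wwtr1). With 3 libraries against 1, the smallest p an exact permutation test of a single value can give is 0.25, so these shares and ratios are given without a test.

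The 4 TEAD genes, which encode the DNA-binding partners, divided in both directions. Tead1 was at 399, 393 and 395 in HBCs and 376 in RBCs, the smallest difference of any member (log2 difference -0.07, SE 0.02, limma adjusted p = 0.0406). Its direction turned with equal sums (0.03) and with values as deposited (0.04). Tead3 was at 163, 199 and 156 in HBCs and 502 in RBCs. The RBC value exceeded every HBC library, by 2.91-fold on average (log2 difference 1.54, SE 0.19, limma adjusted p = 0.0107). The Tead3 call was lost without HBC library 1 (log2 difference 1.49, adjusted p = 0.0585), and its adjusted p ran from 0.00358 to 0.0585 over the alternatives.

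Tead4 was at 127, 133 and 106 in HBCs and 62.5 in RBCs, so that all HBC libraries were above RBCs. The 1.95-fold difference stayed under the minimum (log2 difference -0.94, SE 0.18, limma adjusted p = 0.0260). It passed as higher in HBCs with equal medians (-1.44), under quantile normalization (-2.08) and without HBC library 3 (-1.04). Tead2, a TEAD gene best known from the early embryo, was the lowest in HBCs, at 23.0, 27.2 and 27.4, and was at 48.8 in RBCs. The RBC value was the highest, by 1.88-fold (log2 difference 0.89, SE 0.16, limma adjusted p = 0.0242), which is under the minimum. Under quantile normalization the direction of Tead2 turned (-0.66).

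Composition within the TEAD family differed more than its total. Tead1 took 56.1%, 52.2% and 57.8% of the summed TEAD level in HBC libraries and 38.0% in RBCs. Tead3 took 22.9%, 26.5% and 22.8% in HBCs and 50.8% in RBCs, so that Tead1 led in the cultures and Tead3 in the RBC library. The share of Tead4 was 17.0% ± 1.33 (SD, n = 3) in HBCs and 6.32% in RBCs, and that of Tead2 was 3.62% ± 0.389 (SD, n = 3) and 4.93%. Tead1 over Tead3 was 2.45, 1.97 and 2.53 in HBC libraries and 0.748 in RBCs. The summed level of the 4 genes was 716 ± 34.2 (SD, n = 3) in HBCs and 990 in RBCs, and this difference depends on the depth scaling. The RBC library also held the RNA of other cell types described above, and whether basal cells or other cells carried its Tead3 transcripts was not tested.

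**Figure D3:**
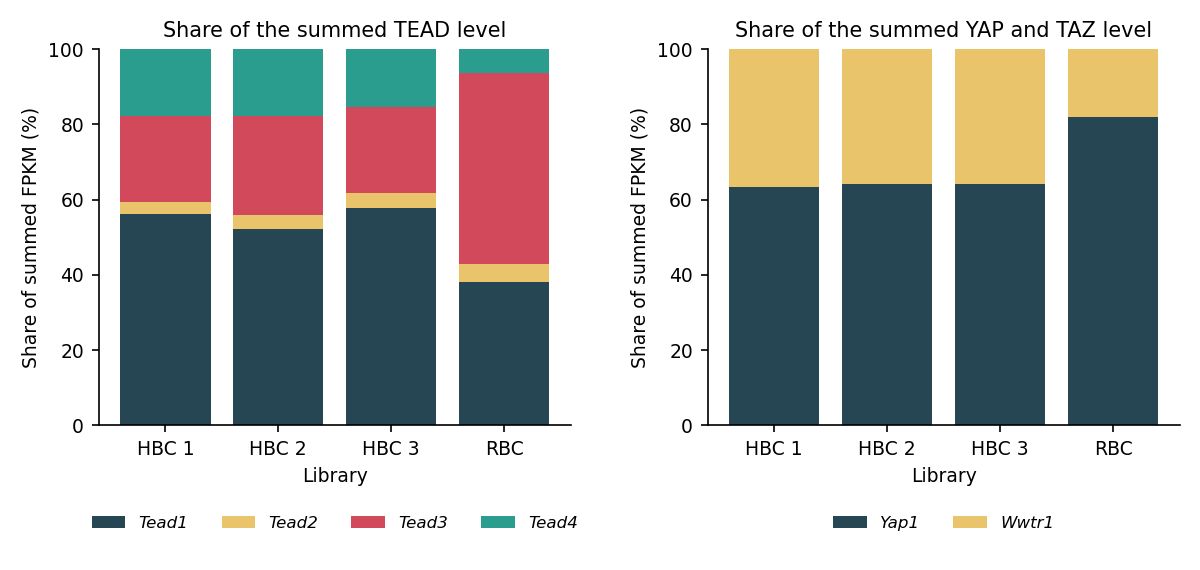
Share (%) of each gene in the summed depth-scaled FPKM of the 4 TEAD genes (left) and of Yap1 and Wwtr1 (right), with 1 bar per library. Tead3 takes 50.8% of the TEAD level in RBCs and 22.8% to 26.5% in HBC libraries, and Yap1 takes 81.9% of the co-activator level in RBCs and 63.4% to 64.2% in HBC libraries.

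The target genes did not move together. Cyr61, which encodes the secreted matricellular protein CCN1, was at 1699, 1878 and 1828 in HBC libraries and 12656 in RBCs. The groups were far apart relative to the HBC spread, with RBCs 7.03-fold higher (log2 difference 2.81, SE 0.08, limma adjusted p = 0.000728). The call held under each of the 11 alternatives, with log2 differences from 2.31 to 3.04. Ctgf, which encodes the related protein CCN2, was at 1276, 1364 and 1318 in HBCs and 1922 in RBCs. RBCs were above every HBC library but by 1.46-fold only (log2 difference 0.54, SE 0.05, limma adjusted p = 0.00604), and this became 0.04 with equal medians. Cyr61 over Ctgf was 1.33, 1.38 and 1.39 in HBC libraries and 6.58 in RBCs.

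Cyr61 is also known as an immediate early gene, one that is transcribed within minutes of serum or stress. Of 21 immediate early genes, 14 were called with RBCs higher, 2 with HBCs higher, and 5 had no call, beside 34.2% and 12.8% of all tested genes. This list, and the genes named from it, were chosen after their values were seen. Fos was at 220 ± 6.71 in HBCs and 26517 in RBCs, Jun at 445 ± 11.7 and 14360, and Egr1 at 188 ± 3.65 and 11653 (SD, n = 3). The 2 genes called with HBCs higher were Fosl1 (mean 411 in HBCs and 21.3 in RBCs) and Myc (1343 and 544). Fosl2 (450 and 460) and Ier3 (2653 and 2364) were among the 5 with no call. The summed level of the 21 genes ran from 14011 to 14576 over HBC libraries and was 124289 in RBCs. The part of any immediate early response in the level of Cyr61 was not tested. The RBCs were microdissected and sorted whereas no sort is given for the cultures. The groups also differ in culture against tissue from the animal and in strain. Handling, culture, strain and cell type thus cannot be told apart here, for Cyr61 or for any other gene.

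Ankrd1, a nuclear ankyrin repeat protein and a widely used YAP target, went the other way. It was at 112, 91.6 and 121 in HBC libraries and 26.6 in RBCs. Every HBC library was above RBCs, by 4.06-fold on average (log2 difference -1.97, SE 0.21, limma adjusted p = 0.00819). The call held under each of the 11 alternatives, with log2 differences from -3.75 to -1.68 and adjusted p from 0.000713 to 0.0495. Cyr61 over Ankrd1 was 15.2, 20.5 and 15.1 in HBCs and 476 in RBCs.

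Amotl2, an angiomotin that binds YAP and restrains it while being a target itself, was at 538, 559 and 550 in HBCs and 428 in RBCs. All HBC libraries were above RBCs, by 1.28-fold (log2 difference -0.36, SE 0.03, limma adjusted p = 0.00492), which is under the minimum. No alternative moved Amotl2 past it. The 4 targets thus comprised 1 called higher in RBCs, 1 called higher in HBCs and 2 not called. Of the 3 with a printed upstream sequence, Cyr61 and Amotl2 each held 1 TEAD motif and Ankrd1 held 2.

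**Figure D4:**
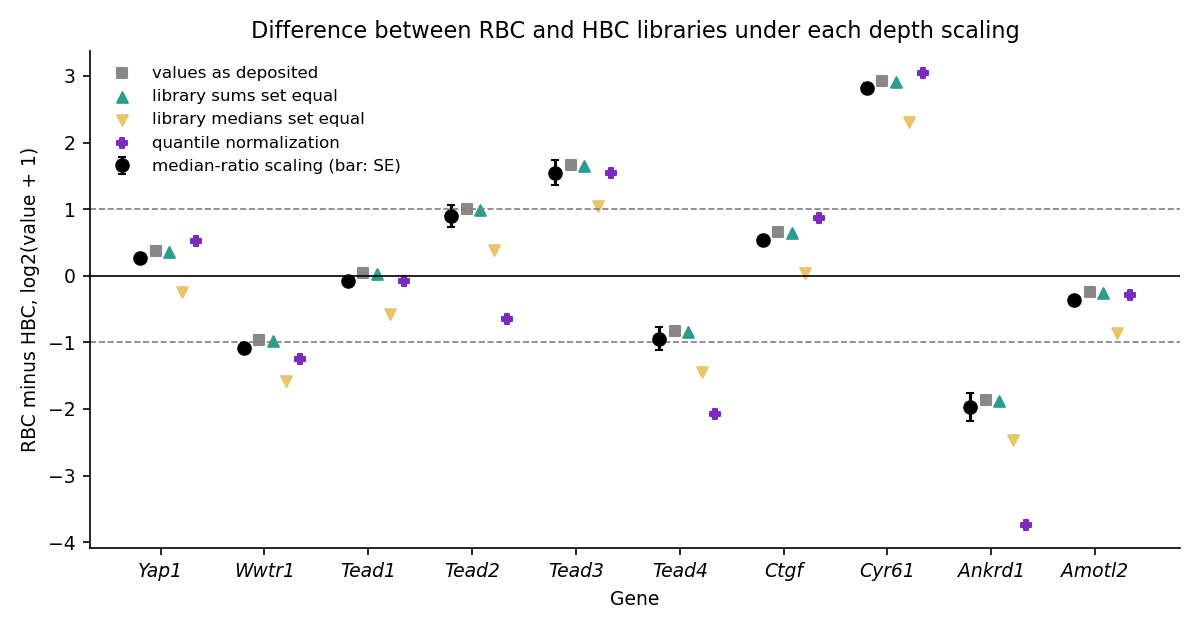
Difference between the RBC library and the HBC mean on the log2(value + 1) scale for the 10 genes under 5 depth scalings, with dashed lines at the 2-fold minimum and bars for the standard error under the main scaling. Cyr61 and Tead3 stay above the upper line and Ankrd1 below the lower line under each scaling, whereas Yap1, Tead1 and Tead2 cross 0.

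Members varied little among the HBC libraries. The coefficient of variation over the 3 libraries was 0.859% for Tead1, 1.88% for Amotl2, 2.68% for Yap1, 3.34% for Ctgf, 4.71% for Wwtr1 and 5.14% for Cyr61. It was larger for the genes of lower level, at 9.62% for Tead2, 11.8% for Tead4, 13.4% for Tead3 and 13.8% for Ankrd1.

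The kinase cassette restrains YAP and TAZ. Of its 7 genes, 2 were called with HBCs higher, 0 with RBCs higher and 5 had no call. Of all tested genes, 12.8% were called with HBCs higher and 34.2% with RBCs higher. At an unadjusted limma p under 0.05, 5 of the 7 passed, 0 of them with RBCs higher. Of all 16438 tested genes, 12812 passed at that level, 7979 of them with RBCs higher. With 7 genes, these counts say little about the cassette. Its median log2 difference was -0.85 against 0.45 for all tested genes. The kinase Stk3 was 2.29-fold higher in HBCs (469 ± 42.2 against 205, limma adjusted p = 0.00838). The LATS co-activator Mob1a was 2.10-fold higher (1816 ± 69.4 against 867, limma adjusted p = 0.00223), and the 2-fold minimum was missed with equal sums (log2 difference -0.97), under quantile normalization (-0.83) and with values as deposited (-0.95). The related kinase Stk4 was at 351 ± 11.9 and 187, and Mob1b at 574 ± 10.6 and 319. Both were under the minimum, which Stk4 passed with equal medians (-1.40) and under quantile normalization (-1.17) and Mob1b with equal medians (-1.35). The scaffold gene Sav1 was at 678 ± 3.37 in HBCs and 527 in RBCs. The kinases that act on YAP directly were nearly level, Lats1 at 329 ± 13.2 and 339 and Lats2, itself a YAP target, at 191 ± 12.7 and 198 (SD, n = 3). The directions of Lats1 and Lats2 turned with equal medians.

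Upstream regulators were called in both directions. Of 20 genes tested, 4 were called with RBCs higher and 2 with HBCs higher, and 14 had no call, beside 34.2% and 12.8% of all tested genes. With 20 genes, these counts say little about the list. Its median log2 difference was 0.18. Higher in RBCs were Ptpn14, a phosphatase that binds YAP (173 ± 3.63 and 501), the kinase gene Taok2 (243 ± 5.44 and 1066), the angiomotin gene Amot (35.6 ± 2.43 and 102) and the giant cadherin gene Fat4 (2.15 ± 0.438 and 23.8). The Amot fold fell under the minimum with equal medians (log2 difference 0.99) and under quantile normalization (0.58), and the Fat4 call was lost under quantile normalization (0.64, limma adjusted p = 0.0513), the highest of its adjusted p, which started at 0.000741. Higher in HBCs were the kinase genes Map4k4 (754 ± 18.2 and 338) and Taok3 (182 ± 3.40 and 88.2). Taok3 fell under the minimum with equal sums (-0.94), with values as deposited (-0.93) and with a pseudocount of 10 (-0.97). Over the core and upstream genes together, the 4 called higher in HBCs became 8 with equal medians and 2 with equal sums or values as deposited.

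The VGLL proteins compete with YAP and TAZ for TEAD. Of the 3 tested VGLL genes, 0 were called in limma and 0 had an unadjusted p under 0.05. Of all 16438 tested genes, 47.0% were called and 12812 had an unadjusted p under 0.05. With 3 genes, these counts say little about the VGLL genes. Vgll4 stood at 371 ± 16.1 in HBCs and 431 in RBCs, and Vgll3 at 41.5 ± 6.36 and 58.1 (SD, n = 3). The directions of both turned with equal medians. Vgll1 was at 2.35, 3.77 and 12.2 in HBC libraries and listed at 0 in the RBC library, and Vgll2 was listed at 0 in all 4 libraries. Vgll1 was called higher in HBCs with equal medians (limma adjusted p = 0.0448), under quantile normalization (0.0428) and with a pseudocount of 0.1 (0.0367). Over the alternatives its adjusted p ran from 0.0367 to 0.277.

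Relatives of Ctgf and Cyr61 in the CCN family were low in the cultures. Of 3 tested, 2 were called higher in RBCs, beside 34.2% of all tested genes. With 3 genes, this count says little about the family. Nov, which encodes CCN3, was at 11.2, 12.0 and 16.6 in HBC libraries and 209 in RBCs (limma adjusted p = 0.00427). Wisp1 was at 18.2 in RBCs and was listed at 0 in 2 of the 3 HBC libraries, with 0.193 in the other. Wisp3 (2.28 in RBCs) was not called, and Wisp2 (1.18 in RBCs) was below the level needed for testing. The cell type marker sums given above, except the epithelial one, moved in the same direction as Nov and Wisp1, and their part was not tested.

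**Figure D5:**
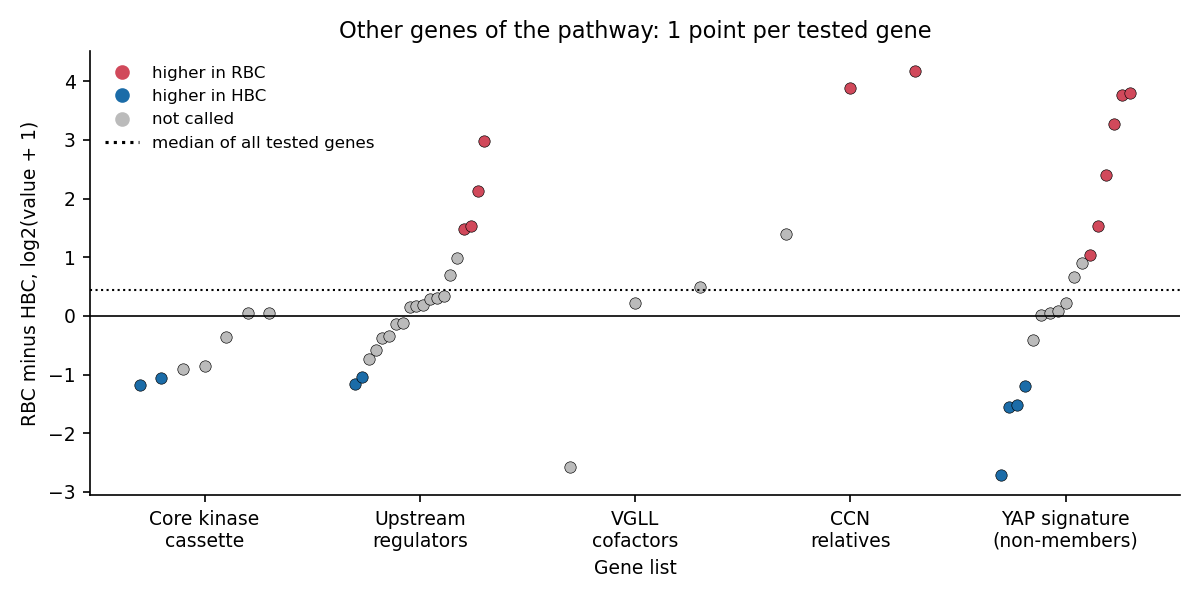
Difference between RBCs and HBCs on the log2(value + 1) scale for each tested gene of 5 lists, with 1 point per gene coloured by its call and a dotted line at the median of all tested genes (0.45). No core kinase gene lies above that line, whereas the upstream regulators and the YAP signature have called genes on both sides.

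A signature of 22 conserved YAP targets, 4 of which are the members Ctgf, Cyr61, Ankrd1 and Amotl2, also divided. Of the other 18 genes, 17 were tested, and 6 were called with RBCs higher and 4 with HBCs higher, and 7 had no call, with a median log2 difference of 0.23. The share called was 10 of 17, beside 47.0% of all tested genes (34.2% with RBCs higher and 12.8% with HBCs higher). F3, which encodes tissue factor, the starter of blood clotting, was at 1369 ± 38.0 in HBCs and 19125 in RBCs, a 14.0-fold difference (limma adjusted p = 0.000109). Crim1, a transmembrane binder of growth factors, was 5.32-fold higher in RBCs (240 ± 6.03 and 1276). Rbms3, an RNA-binding protein gene, was at 29.7 ± 3.37 and 295, and Ccdc80 was at 0.292 ± 0.273, near the lowest values of the table, and 16.3.

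In the other direction, Igfbp3, a binder of insulin-like growth factors, was 6.56-fold higher in HBCs (19091 ± 376 against 2910, limma adjusted p = 0.000260). Nt5e, the ecto-nucleotidase CD73, was 2.93-fold higher (1514 ± 12.0 against 516), and the stress gene Gadd45a was 2.85-fold higher (1250 ± 1.31 against 438). Asap1 was 2.31-fold higher in HBCs (185 ± 10.7 against 80.0). Arhgef17 was 2.06-fold higher in RBCs (203 ± 4.05 and 417), and it fell under the minimum with equal medians (log2 difference 0.54). The remaining gene called higher in RBCs was Ptpn14, described above. The signature was drawn up in other tissues, and the cell type marker sums given above, except the epithelial one, were higher in the same RBC library. Their part in these differences was not tested.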

How the data were processed

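RNA was sequenced from 3 libraries of cultured horizontal basal cells and 1 library of sorted respiratory basal cells, and the 4 share 1 deposited table. The authors deposited FPKM values (fragments per kilobase of transcript, scaled to mapped fragments), 1 per gene symbol. STAR, Cuffnorm, Cufflinks 2.2.1 and the build mm9 are named, with no role or order, in the submitters' processing notes. Not given in the sources used here are the annotation and the strand setting.

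Among genes that stayed below 4 throughout, 12.4% to 26.0% had values within 2% of each other in 2 libraries, by pair, while the column sums differed, so no division by depth was visible. Each column was therefore divided by its median ratio to the gene-wise geometric mean, taken over 11134 genes that reached 10 everywhere. The factors were 0.845, 1.05 and 1.07 (HBC libraries 1, 2 and 3) and 1.06 (RBC). Read depth is unknown, and counting intervals are left out. Testing required a level of at least 1, averaged over the HBC mean and the RBC value, and 16438 of 23281 genes met this. Log2(value + 1) entered limma 3.58.1 (R 4.3.3, lmFit and eBayes with trend, two-sided, Benjamini-Hochberg adjustment over all tested genes). The spread has 2 residual degrees of freedom, all from the HBC libraries, so the p-values assume that the single RBC library varies as they do. The fit was also run on simulated data, in which the RBC column was given the HBC spread, so that run cannot check this assumption. A log2 change on this scale understates the change of low genes. The members and gene lists were chosen with earlier results of these data known. The immediate early list and the genes named from it were chosen after their values were seen. All 10 members, the core kinase and VGLL lists and the called genes of the other pathway lists could be named. The alternatives were 4 other scalings, pseudocounts of 0.1 and 10, no filter, a minimum of 5, and leaving out each HBC library.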

Additional observations from a re-analysis of the deposited data

How the results depend on the processing

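No paired analysis was possible because the RBC group is 1 library and the labels give no pairing between the groups. Of 110 comparisons of a member under an alternative, 100 kept direction and side of the threshold, 4 turned (Yap1 at -0.24 with equal medians, Tead1 at 0.027 with equal sums and 0.039 with values as deposited, Tead2 at -0.66 under quantile normalization), 3 were no longer called and 3 were newly called. Genes called higher in RBCs numbered 3158 under quantile normalization, and those called higher in HBCs 3664 under it and 3869 with equal medians. Core and upstream genes called higher in HBCs numbered 8 with equal medians, 2 with equal sums and 2 with values as deposited. The median of all genes turned to -0.054 with equal medians and -0.10 under quantile normalization. Among genes not called, Lats1 turned to -0.46 and -0.021, Lats2 to -0.45 and -0.24 and Vgll3 to -0.014 and -0.85 under these 2 settings, in that order, Vgll4 to -0.29 with equal medians, and with an HBC library left out Lats2 ran from -0.0048 to 0.084. The cause was not tested. With an HBC library left out, genes called higher in RBCs ran from 4931 to 5010 and higher in HBCs from 2004 to 2039, and the HBC share of Tead3 ran from 22.8% to 24.7% and of Yap1 from 63.8% to 64.2%. The RBC group is 1 library whose own spread is unknown, and depth in reads is not known, which limits the lowest genes most.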
